A study of Mus musculus with 6 samples.

Results

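The epidermal suprabasal keratins are Krt1, Krt10, Krt2, Krt76 and Krt77, the keratins of differentiating cells in skin and other cornified or masticatory surfaces. The members were found as every non-control probe on the arrays whose gene name was one of these 5 symbols, read in both channels. That gave 4 of the 5 genes, among 28146 gene names on the arrays, with 7 of 41174 probes: 2 probes each for Krt1, Krt10 and Krt2 and 1 for Krt76. Krt77 was not analysed here, since no probe carried its name.

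RNA labelled as esophageal epithelium of adult C57BL/6J mice was measured on 6 two-colour arrays. 3 arrays carried RNA of Pax9 knockout mice, genotype K5Cre;Pax9 loxp/loxp, in which the keratin 5 promoter drives Cre and so removes the floxed part of Pax9 from basal cells of stratified epithelia onward. The other 3 carried RNA of WT mice, with no Cre or floxed allele named in their labels. Esophagus RNA was in Cy5 on every array, and Cy3 held the same reference, a pool of RNA from 11 mouse cell lines in culture. The labels call the arrays of a group biological replicates and say nothing further of the animals, and the extraction text names esophageal tissue where the source field names epithelium.

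Keratins are intermediate filament proteins that assemble as obligate pairs of a type I and a type II chain. In the epidermis, basal cells make Krt5 and Krt14, and cells that leave the basal layer switch to Krt1 (type II) and Krt10 (type I), whose filaments fill the spinous and granular layers. Krt2 is a type II chain added in the uppermost living layers, Krt76 is a type II chain of the palate and other oral surfaces, and Krt77 is a type II chain known from human sweat gland ducts. The upper layers of the normal esophagus use Krt4 and Krt13 in place of the epidermal pair, although the mouse esophagus is itself keratinised.

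The probes are 60 bases long, and their sequences are shown because probes of the same gene gave different results. All of a probe is printed where it starts less than 1800 bases into its transcript, and its first 30 bases otherwise. Positions are those of the files on build mm9.
Krt1 probe A_51_P416669 (chr15:101676107-101676166, minus strand): agttttcatattagtagcagtctgagtccc
Krt1 probe A_51_P207237 (chr15:101678904-101678963): caggcttgctacctggttctccacaacatg
Krt10 probe A_52_P76277 (chr11:99247994-99248053, minus strand): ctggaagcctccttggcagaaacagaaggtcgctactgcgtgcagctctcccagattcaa
Krt10 probe A_51_P111285 (chromosome 11, with no position in the files): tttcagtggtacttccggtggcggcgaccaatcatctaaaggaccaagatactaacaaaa
Krt2 probe A_51_P343474 (chr15:101641326-101641385, minus strand): cagagatactgtgttctgggaaagaatctg
Krt2 probe A_52_P462608 (chr15:101641879-101641938, minus strand): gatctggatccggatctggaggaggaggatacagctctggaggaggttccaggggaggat
Krt76 probe A_51_P257175 (chr15:101715054-101715113, minus strand): gaacttctttgctcctatatctttaagtct
Krt1, Krt2 and Krt76 lie in the type II keratin cluster on chromosome 15 and Krt10 in the type I cluster on chromosome 11. Krt1 probe A_51_P207237 was designed on a full-length cDNA and lies 2738 bases from A_51_P416669, and its coordinates run in the plus direction. Among 21471 probes matched to RefSeq by accession, coordinates ran along the RefSeq strand of the gene in 99.7%, so this probe reads the strand opposite to Krt1 by that convention. It is given apart from the other Krt1 probe, except where a mean over probes is named.

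All 3 arrays labelled knockout lay on one slide with one scan, and all 3 labelled wild type on another, so slide and group cannot be told apart in any comparison here. No spot was saturated, and 71.8% to 76.1% of probes on arrays labelled knockout and 67.3% to 77.3% on arrays labelled wild type were well above background in Cy5. The targeted gene, Pax9, was brighter where the labels say knockout: its probe read 32590, 33910 and 26710 on arrays labelled knockout and 16450, 18010 and 17760 on those labelled wild type (processed Cy5 signal), a difference of 0.73 in log2 ratio (SE 0.18, limma adjusted p = 0.071) and of 1.09 in Cy5 alone (adjusted p = 0.0096). Whether this probe lies in the deleted part of the gene was not analysed here, and groups are therefore named by their labels. The Cy3 signal of the common reference also differed between the slides, with an adjusted p under 0.05 for 54.6% of the 30501 tested probes. For that reason each member is given as processed signal, as log2 of Cy5 over Cy3 (the main measure), and as each channel alone.

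Krt1 and Krt10 were far dimmer on arrays labelled knockout than in the wild type group, where their signals were very bright, whereas the groups overlapped at Krt76. Krt1 was lower by 5.28 on the log2 ratio scale and passed the test. The Krt10 probes were lower by 2.31 and 3.92 and missed it on the ratio, but passed it on Cy5 alone. Krt2 was dim: its better probe was well above background on no array labelled knockout and on all 3 labelled wild type. In whole-tissue RNA, fewer cells of a type and less RNA per cell cannot be told apart.

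Krt1, the type II partner of the epidermal pair, had processed Cy5 signals of 3740, 726 and 808 on arrays labelled knockout 1, 2 and 3 at A_51_P416669, against 723300, 1129000 and 821100 on those labelled wild type. The groups were far from overlapping: the lowest wild type value was 193 times the highest knockout value. The log2 ratio averaged 2.37 ± 1.16 on arrays labelled knockout and 7.65 ± 0.39 on those labelled wild type (SD, n = 3 each). It fell by 5.28 (SE 0.54, 95% interval -6.56 to -4.00, limma adjusted p = 0.0088), the third largest fall among 30501 tested probes. This was the single member probe of 6 tested that passed on the ratio, where 4.18% of all tested probes passed (544 lower and 730 higher) and 1.78% passed as lower. With array replicate number as a block, a pairing taken up by a rule on these same data, its adjusted p was 0.0034. The call rested on 2 of the arrays: without knockout replicate 3 the adjusted p was 0.054, and without wild type replicate 1 it was 0.051, with differences of -4.97 and -5.27.

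The Cy3 channel at this Krt1 probe read 265, 212 and 235 on arrays labelled knockout and 3366, 4032 and 5140 on those labelled wild type, although both held the same reference RNA. The Cy3 difference was -3.37 on the log2 scale (limma adjusted p = 9.7e-06), and 25.2% of all tested probes passed as lower in Cy3. Cy5 alone, after quantile normalization between arrays, fell by 9.08 (SE 0.59, 95% interval -10.47 to -7.69, adjusted p = 0.0020), a 540-fold difference. The ratio therefore gave a smaller fall than Cy5 alone. What moved Cy3 was not tested.

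Krt1 probe A_51_P207237, on the opposite strand only by the coordinate convention above, was dim and did not follow the main one. It read 183, 616 and 136 in Cy5 on arrays labelled knockout and 361, 416 and 531 on those labelled wild type, so that knockout replicate 2 was the brightest of the 6 arrays. The log2 ratio differed by -0.03 (SE 0.24, 95% interval -0.60 to 0.54, adjusted p = 0.95), and by 0.63 in the deposited log ratio (adjusted p = 0.17). Cy5 alone differed by -0.75 (adjusted p = 0.13) and Cy3 by -1.11 (adjusted p = 0.010). The 2 Krt1 probes' differences were 5.25 apart in log2 ratio and 8.33 apart in Cy5. An exact permutation test over the arrays gave p = 0.1 for both, the smallest value that 20 splits of 3 against 3 allow.

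**Figure D1:**
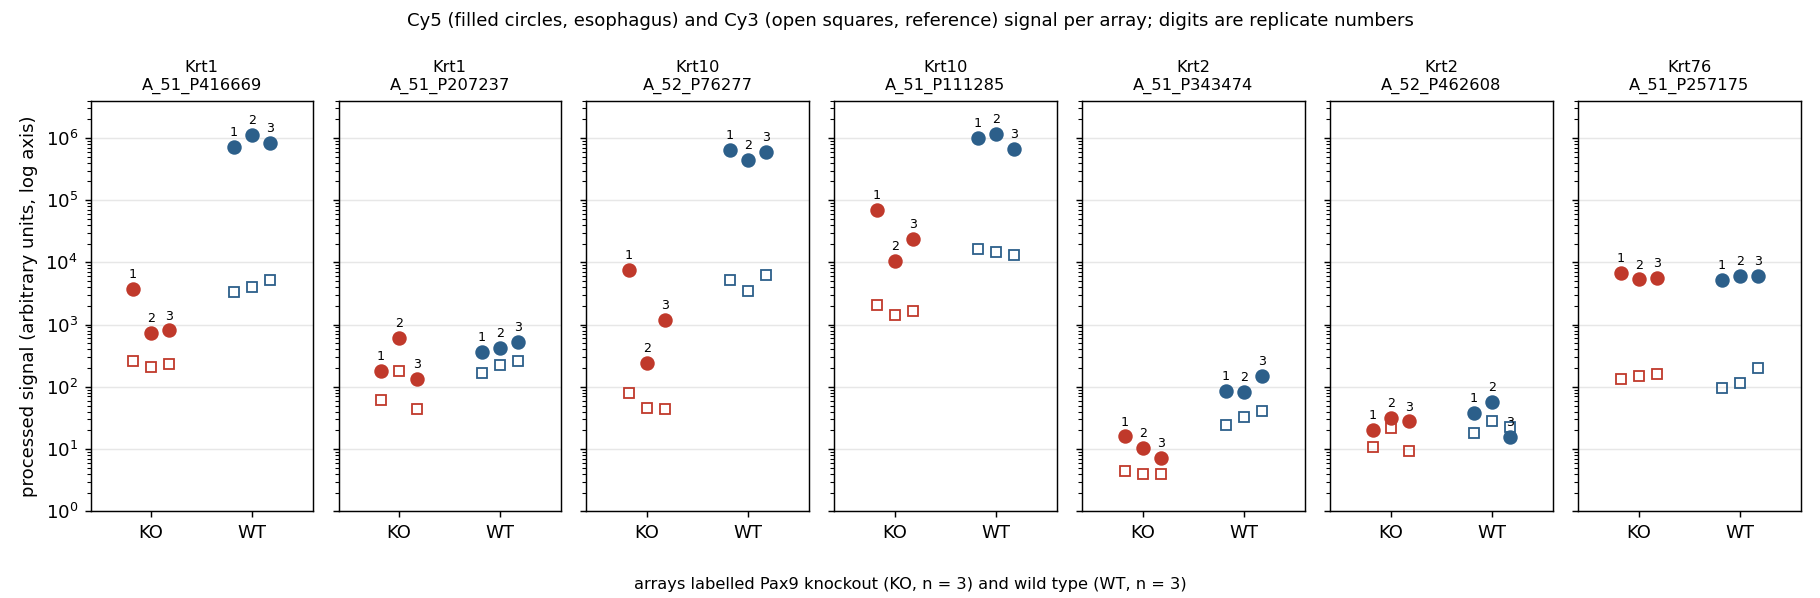
Processed signal on a log axis at each of the 7 member probes, 1 point per array, for arrays labelled Pax9 knockout (KO, red, left) and wild type (WT, blue, right); filled circles are Cy5 (esophagus RNA) and open squares Cy3 (reference RNA). Krt1 A_51_P416669, both Krt10 probes and Krt2 A_51_P343474 separate fully in both channels, Krt76 overlaps, and both Krt2 probes lie low.

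Krt10, the type I partner of Krt1, was measured at 2 places. At A_51_P111285, the brighter probe, Cy5 was 68780, 10570 and 24120 on arrays labelled knockout and 1008000, 1146000 and 657600 on those labelled wild type. At A_52_P76277 it was 7510, 245 and 1176 on arrays labelled knockout and 652200, 443300 and 590200 on those labelled wild type. The groups did not overlap at either probe. In 24.1% of all tested probes the arrays labelled knockout lay wholly lower in Cy5, and in 14.9% in the ratio. Knockout replicate 1 was the brightest knockout array and replicate 2 the dimmest at both, with a 30.6-fold span between them at A_52_P76277.

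The log2 ratio at A_51_P111285 averaged 3.93 ± 1.10 on arrays labelled knockout and 6.25 ± 0.27 on those labelled wild type (SD, n = 3 each), a difference of -2.31 (SE 0.50, 95% interval -3.50 to -1.13) that missed the threshold (limma adjusted p = 0.053). With the replicate block it passed (adjusted p = 0.031), but that pairing was taken up by a rule on these same data. Without knockout replicate 1 the difference was -2.87 (adjusted p = 0.034). At A_52_P76277 the ratio averaged 3.02 ± 2.14 and 6.95 ± 0.25 on arrays labelled knockout and wild type (SD, n = 3 each), a difference of -3.92 (SE 0.94, 95% interval -6.14 to -1.71, adjusted p = 0.065). Here too the replicate block passed (adjusted p = 0.028), as did the fit without knockout replicate 1, at -5.01 (adjusted p = 0.033). In the deposited log ratio, where 2.38% of all tested probes passed and 1.13% passed as lower, the single member probe past the threshold was again Krt1 A_51_P416669 (-5.27, adjusted p = 0.0089). That ratio gave a smaller difference at A_52_P76277, -2.25 (adjusted p = 0.30): its values were 6.58, 2.45 and 4.75 on arrays labelled knockout and 6.98, 6.97 and 6.57 on those labelled wild type, so knockout replicate 1 lay within the wild type range.

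On Cy5 alone both Krt10 probes fell, with a difference of -9.24 at A_52_P76277 (SE 0.88, adjusted p = 0.0032) and -5.93 at A_51_P111285 (SE 0.66, adjusted p = 0.0040). These are 605-fold and 61.1-fold differences, the first and sixth largest falls in Cy5 among the tested probes. 4 of the 6 tested member probes passed on Cy5 alone, all of them lower, where 27.1% of all tested probes passed (4378 lower and 3896 higher) and 14.4% passed as lower; 1 of the 4, at Krt2, had entered the test through its wild type arrays alone. Cy3 at A_52_P76277 was 78.3, 44.9 and 43.8 on arrays labelled knockout and 5175, 3528 and 6217 on those labelled wild type, a difference of -5.34, the largest Cy3 fall among the tested probes. At A_51_P111285 Cy3 was 2106, 1445 and 1668 on arrays labelled knockout and 16450, 14870 and 12990 on those labelled wild type, a difference of -3.09. The probes of Krt10 differed by 1.61 in their ratio change and by 3.31 in their Cy5 change (exact permutation p = 0.1 for both, the smallest possible).

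**Figure D2:**
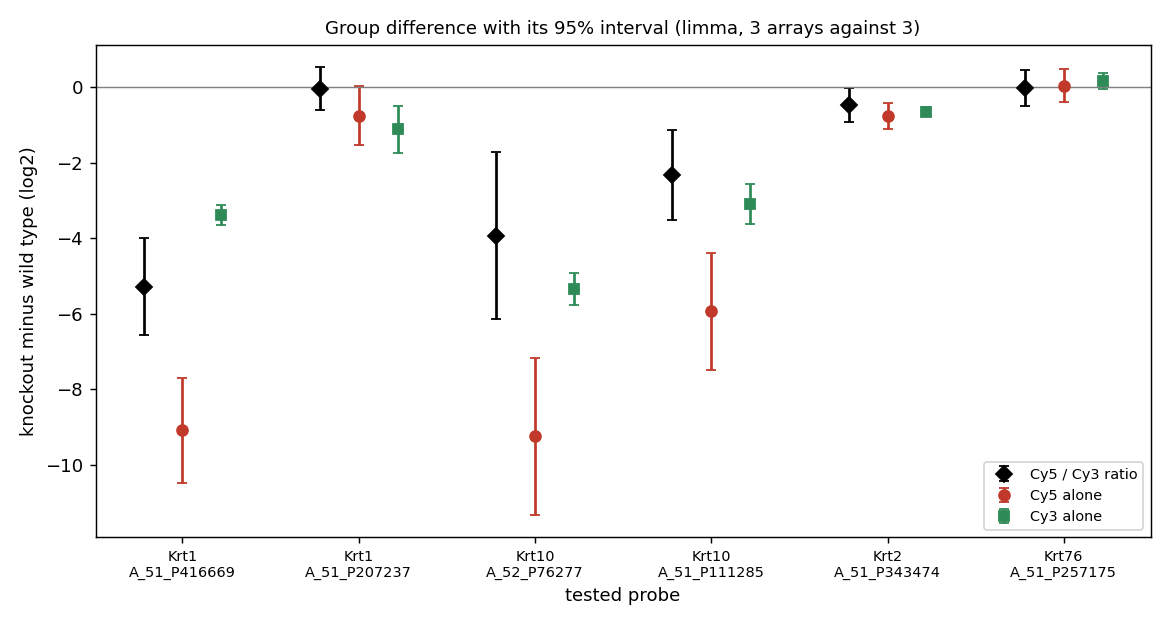
Knockout minus wild type difference (log2) with its 95% interval from limma, for the 6 tested member probes, in the Cy5 / Cy3 ratio (black diamonds), Cy5 alone (red circles) and Cy3 alone (green squares). Where Cy5 was lower by 5 or more (Krt1 A_51_P416669 and both Krt10 probes), the Cy3 difference was -5.34 to -3.09 and the ratio gave the smaller change.

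Cy3 and Cy5 also moved the same way at other probes with large changes. All 9 tested probes whose Cy5 was lower by 5 or more also had lower Cy3, with a median Cy3 difference of -3.09. Among 33 probes with Cy5 lower by 3 or more the median Cy3 difference was -1.72, among 29 with Cy5 higher by 3 or more it was 1.37, and over all tested probes it was 0.04. The Krt1 and Krt10 probes hold 3 of those 9 places.

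Krt2, the type II keratin of the uppermost living epidermis, was barely detected. Its probe A_51_P343474 read 16.0, 10.5 and 7.25 in Cy5 on arrays labelled knockout, none well above background, and 87.0, 82.2 and 152 on those labelled wild type, all 3 well above it. The level on arrays labelled knockout was thus only bounded: over all settings run the smallest fold was 1.23-fold lower (ratio difference -0.47, limma adjusted p = 0.19; Cy5 alone -0.76, adjusted p = 0.014). On Cy5 alone the call was lost without knockout replicate 3 (adjusted p = 0.056) or wild type replicate 1 (adjusted p = 0.051). This probe entered the test through its wild type arrays alone, so that call is no support. The second probe, A_52_P462608, in the glycine-rich stretch printed above, read 20.1, 31.7 and 27.7 on arrays labelled knockout and 38.7, 56.9 and 15.7 on those labelled wild type. It was well above background on 0 arrays labelled knockout and 1 labelled wild type, and was not tested. The groups overlapped at it.

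Krt76, the type II keratin of the palate, was well above background on all 6 arrays, and its groups overlapped. Cy5 was 6810, 5340 and 5690 on arrays labelled knockout and 5296, 6095 and 6077 on those labelled wild type, so that the groups were interleaved. The log2 ratio averaged 4.97 ± 0.21 and 4.98 ± 0.31 on arrays labelled knockout and wild type (SD, n = 3 each), a difference of -0.02 (SE 0.20, 95% interval -0.50 to 0.47, limma adjusted p = 0.97). On Cy5 alone it was 0.05 (adjusted p = 0.86) and on Cy3 alone 0.17 (adjusted p = 0.16). Among the genes measured here, the difference of Krt1 minus that of Krt76 was -5.26 on the ratio scale and -9.12 in Cy5, with exact permutation p = 0.1 for both, the smallest possible.

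The promoters of 4 members were in the RefSeq promoter table of build GRCm38.p6, which holds 32817 promoters of 300 bases. The 80 bases before the transcription start of each are shown because 2 members hold TATAAA, Krt10 and Krt76. On Cy5 alone Krt10 passed as lower on arrays labelled knockout and Krt76 did not pass. On the ratio neither gene passed, and whether the letters bear on either gene was not tested. TATAAA is in capitals.
Krt10 (chr11:99389365-99389444, minus strand): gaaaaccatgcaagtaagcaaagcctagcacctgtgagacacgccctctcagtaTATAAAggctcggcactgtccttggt
Krt76 (chr15:101892921-101893000, minus strand): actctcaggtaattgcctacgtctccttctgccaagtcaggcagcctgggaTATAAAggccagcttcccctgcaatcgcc
Krt2 (chr15:101818170-101818249, minus strand): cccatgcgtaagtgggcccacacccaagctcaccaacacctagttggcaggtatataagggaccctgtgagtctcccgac
Krt77 (chr15:101869706-101869785, minus strand): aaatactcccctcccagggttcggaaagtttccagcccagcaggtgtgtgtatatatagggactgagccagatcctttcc
TATAAA, searched on both strands, begins 26 bases before the start of Krt10 and 29 before that of Krt76. It was in 13.6% of all promoters in the table. The letters TGANTCA, the core bound by AP-1 factors, and GTCACGC, a core bound by paired domains such as that of Pax9, were searched on both strands, do not overlap each other in any member, and are in 7.8% and 2.1% of all promoters. Neither was in any of these 4 promoters, which says only that these letters are not in the 300-base windows.

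Few other genes of the suprabasal programme passed on the ratio. Of 47 genes listed for the suprabasal and cornified epidermis, 44 were tested on the ratio, and 0 rose and 2 fell, with a median difference of -0.36 (limma; 1 and 7 at an unadjusted p under 0.05). Over all 20818 genes 590 rose and 417 fell, 2.83% and 2.00%, with a median of 0.01 (2748 and 2404 unadjusted). Whether past the threshold or not, 37 of the 44 were lower on the ratio, as were 10093 of all 20818 genes. The 2 that fell were Flg2, a filaggrin-family protein of the granular layer, and Lipn, a lipase of differentiating keratinocytes. Both were below background on all arrays labelled knockout and entered the test only through those labelled wild type, so that they had to differ and their count is no support. Their level is bounded: the smallest fold over the settings run was 10.3-fold lower for Flg2 (limma adjusted p = 0.028) and 1.69-fold lower for Lipn (adjusted p = 0.029). Nipal4, an ichthyosis gene of the epidermal lipid pathway, had the third smallest p, at a difference of 0.91 (adjusted p = 0.068). On Cy5 alone, 3 of the 44 rose and 11 fell, against 2979 and 3022 of all 20818 genes (14.3% and 14.5%). The 11 include Flg2 and Lipn, which are no support here either.

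The values of 4 further proteins that share cells with Krt1 and Krt10 in skin follow, chosen after they were seen. Lor, the main protein of the cornified envelope, read 930100, 876400 and 771600 in processed Cy5 on arrays labelled knockout and 1616000, 1937000 and 1132000 on those labelled wild type. Its ratio differed by -0.08 (adjusted p = 0.90) and its quantile-normalized Cy5 alone by 0.10 (adjusted p = 0.57). Krtdap, a keratinocyte differentiation protein, differed by -0.23 (adjusted p = 0.52) and Asprv1, a filaggrin-processing protease, by -0.26 (adjusted p = 0.50). Flg, which bundles keratin filaments, had Cy5 of 127400, 9035 and 9755 on arrays labelled knockout and 179600, 527200 and 490800 on those labelled wild type. Its ratio differed by -0.62 (adjusted p = 0.21) and its Cy5 alone by -4.87 (adjusted p = 0.024), with a Cy3 difference of -3.72.

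**Figure D3:**
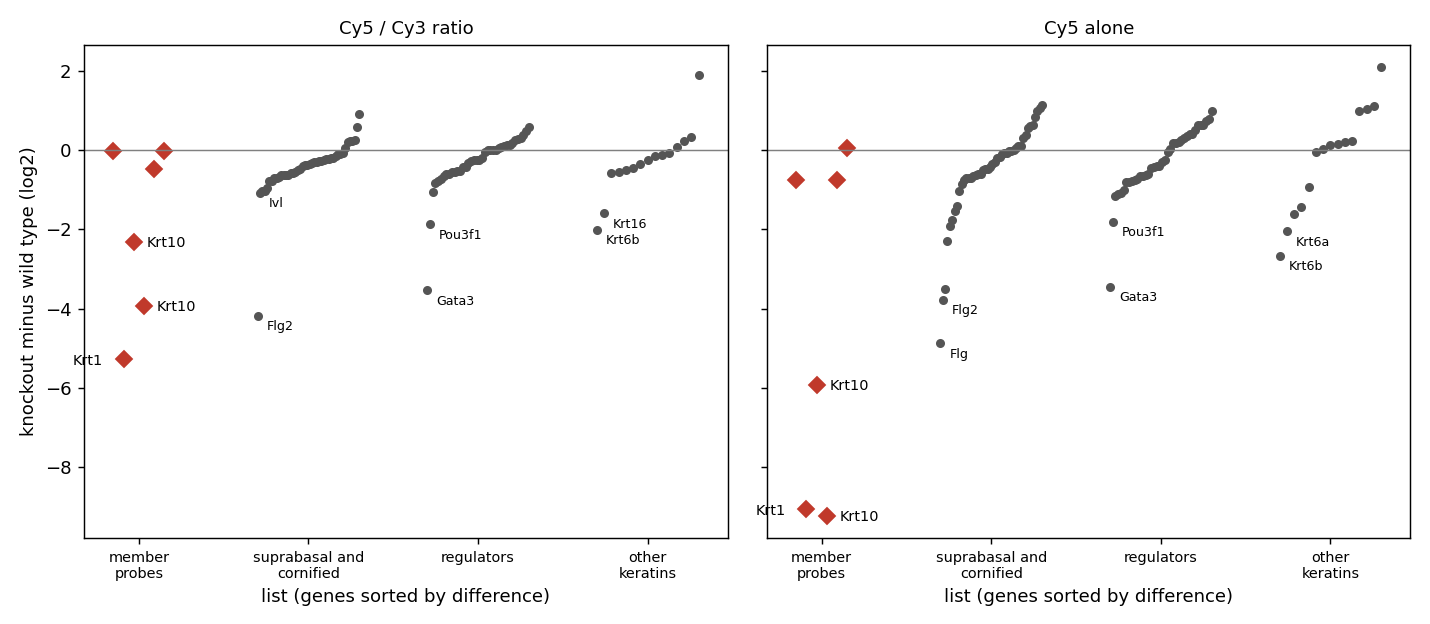
Knockout minus wild type difference (log2) on the Cy5 / Cy3 ratio (left) and Cy5 alone (right) for the 6 tested member probes (red diamonds) and the tested genes of 3 lists (grey, sorted within each list). Krt1 A_51_P416669 and both Krt10 probes lie below every listed gene on Cy5 alone, and Flg2 is the lowest listed gene on the ratio.

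Among the other keratins of stratified epithelia, 15 of 17 were tested, and 1 rose and 0 fell on the ratio (median -0.26; 1 and 3 at an unadjusted p under 0.05), against 4 and 2 on Cy5 alone. Shares over all genes were 2.83% and 2.00% on the ratio (2748 and 2404 of 20818 unadjusted) and 14.3% and 14.5% on Cy5 alone. Krt79, a keratin of hair canals and sebaceous ducts, rose by 1.91 (SE 0.40, limma adjusted p = 0.047), but did not pass in the deposited log ratio (1.03, adjusted p = 0.19). Krt6b, a keratin of activated keratinocytes, differed by -2.02 (adjusted p = 0.067). Krt9, a type I keratin of palm and sole skin, was below background on every knockout-labelled array, and its ratio difference was -0.50 (adjusted p = 0.076). It entered the test through its wild type arrays alone, so its place among the 2 that fell on Cy5 alone is no support. Of 2 keratins chosen after their values were seen, Krt13, the type I keratin of the esophageal upper layers, differed by -0.34 (adjusted p = 0.40) and its partner Krt4 by -0.26 (adjusted p = 0.62). The difference of Krt1 minus that of Krt4 was -5.02 in log2 ratio, and that of Krt10 minus that of Krt13 was -1.98, 2 of 5 such comparisons chosen after the values were seen, each with exact permutation p = 0.1, the smallest possible.

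Among 40 genes listed as regulators of suprabasal differentiation, 38 were tested, and 0 rose and 2 fell on the ratio (median -0.24; 1 and 13 at an unadjusted p under 0.05), against 2 and 11 on Cy5 alone. Over all genes, 2.83% rose and 2.00% fell on the ratio (2748 and 2404 of 20818 unadjusted), and 14.3% and 14.5% on Cy5 alone. Of the calls on Cy5 alone, those of Pou2f3 (lower) and Ppard (higher), genes named after their values were seen, are no support. These genes entered the test through the wild type and the knockout arrays alone, respectively. Gata3, a zinc-finger factor of skin and hair lineages, fell by 3.54 (SE 0.50, limma adjusted p = 0.020). Its processed Cy5 was 253.7, 78.3 and 89.4 on arrays labelled knockout and 2491, 3963 and 1202 on those labelled wild type, without overlap. Dlx3, a homeobox factor of the epidermis, fell by 1.04 (adjusted p = 0.033) but did not pass in the deposited log ratio (-0.37, adjusted p = 0.73), and Ovol2, a zinc-finger repressor, differed by -0.66 (adjusted p = 0.053), and by -1.63 in the deposited log ratio (adjusted p = 0.025). Over the 3 lists 5 genes passed on the ratio. Without knockout replicate 1, knockout replicate 3 or wild type replicate 2 that count was 0, without wild type replicate 1 it was 1, and without knockout replicate 2 it was 2.

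Markers of other tissues were read beside these results. All 6 markers of esophageal squamous epithelium were well above background on every array, with summed Cy5 of 2450000 to 3660000 on arrays labelled knockout and 2120000 to 2780000 on those labelled wild type. Skeletal muscle markers summed to 384000 to 2800000 on arrays labelled knockout and 97600 to 1140000 on those labelled wild type, with 9 to 10 of 10 above background, and smooth muscle markers to 222000 to 498000 on arrays labelled knockout and 164000 to 779000 on those labelled wild type, with 7 of 7. Of the 10 skeletal muscle genes, 0 were lower on Cy5 alone (median 1.72) and 1 on the ratio, against 9852 and 10093 of all 20818 genes. Myh2 passed as higher on the ratio (1.63, limma adjusted p = 0.040) and on Cy5 alone (1.38, adjusted p = 0.011). Mylpf read 41080, 429100 and 61630 on arrays labelled knockout and 7920, 96390 and 10310 on those labelled wild type. It was thus brightest on replicate 2 of both groups, where Myh2 was dimmest, both named after their values were seen. What part muscle has in the pairing of replicates was not tested. Hair and skin appendage markers summed to 4650 to 6980 on arrays labelled knockout and 1680 to 4030 on those labelled wild type, with 6 to 8 and 4 to 7 of 9 above background and Krt25 on none. Krt79 made most of that sum: without it the other 8 summed to 883 to 1130 on arrays labelled knockout and 1040 to 1920 on those labelled wild type. Leukocyte markers, which include Langerhans cell genes, summed to 17800 to 30600 on arrays labelled knockout and 46100 to 79000 on those labelled wild type without overlap, all 8 of 8 above background. Without Cd74, the brightest, they overlapped, at 9710 to 16600 on arrays labelled knockout and 12200 to 19200 on those labelled wild type. Epcam was then the largest part, at 7316, 7299 and 12400 on arrays labelled knockout and 7375, 7180 and 9857 on those labelled wild type. On the ratio Cd207 and Cd3g passed as lower and none as higher, where 2.00% and 2.83% of all genes did. Cd3e went the other way from Cd3g, by 0.54 on the ratio (limma adjusted p = 0.14) and 1.08 on Cy5 alone (adjusted p = 0.014). These genes were named after their values were seen. Cd207, a Langerhans cell gene, read 192.4, 216.5 and 408.1 on arrays labelled knockout and 5807, 3028 and 2628 on those labelled wild type. Its ratio differed by -3.35 (limma adjusted p = 0.010), and its deposited log ratio by -1.46 (adjusted p = 0.15). The sums of 3 further lists overlapped between the groups. They were 274 to 342 on arrays labelled knockout and 299 to 501 on those labelled wild type for melanocytes (Tyr at background on all arrays), with 3 and 2 to 3 of 5 markers above background. For trachea and thyroid they were 8670 to 31100 on arrays labelled knockout and 27500 to 55200 on those labelled wild type, with 4 to 6 and 3 to 5 of 6. Without Scgb1a1, the brightest, they did not overlap, at 1100 to 1510 on arrays labelled knockout and 1840 to 3020 on those labelled wild type. For glandular stomach the sums were 2260 to 2390 on arrays labelled knockout and 2130 to 5070 on those labelled wild type, with 5 to 7 of 9 in both groups and Gkn1 at background on all arrays. In these lists Scgb3a2 passed as lower on the ratio (-1.85, limma adjusted p = 0.012) but not on Cy5 alone (-0.51, adjusted p = 0.19). Atp4b passed as higher on the ratio (0.81, adjusted p = 0.049) but not in the deposited log ratio (0.16, adjusted p = 0.83). Both were named after their values were seen. Whether any of these tissues has a part in the Krt1 and Krt10 results was not tested.

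The probes whose log2 ratio over the 6 arrays was most like that of Krt1 were those of Spink12 (Pearson r = 0.999), Epb41l1, Nckipsd, Bcor and Slc48a1. For Krt10 they were Tmcc3 (r = 0.997), Coq8b, Kmt5c, Als2cl and Clu. The arrays form 2 separate groups, so that any probe with a like difference between slides scores high: 1280 of 26441 named probes had r above 0.9 with Krt1 and 837 with Krt10. Spink12, a Kazal protease inhibitor, itself differed by -5.95 on the ratio.

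**Figure D4:**
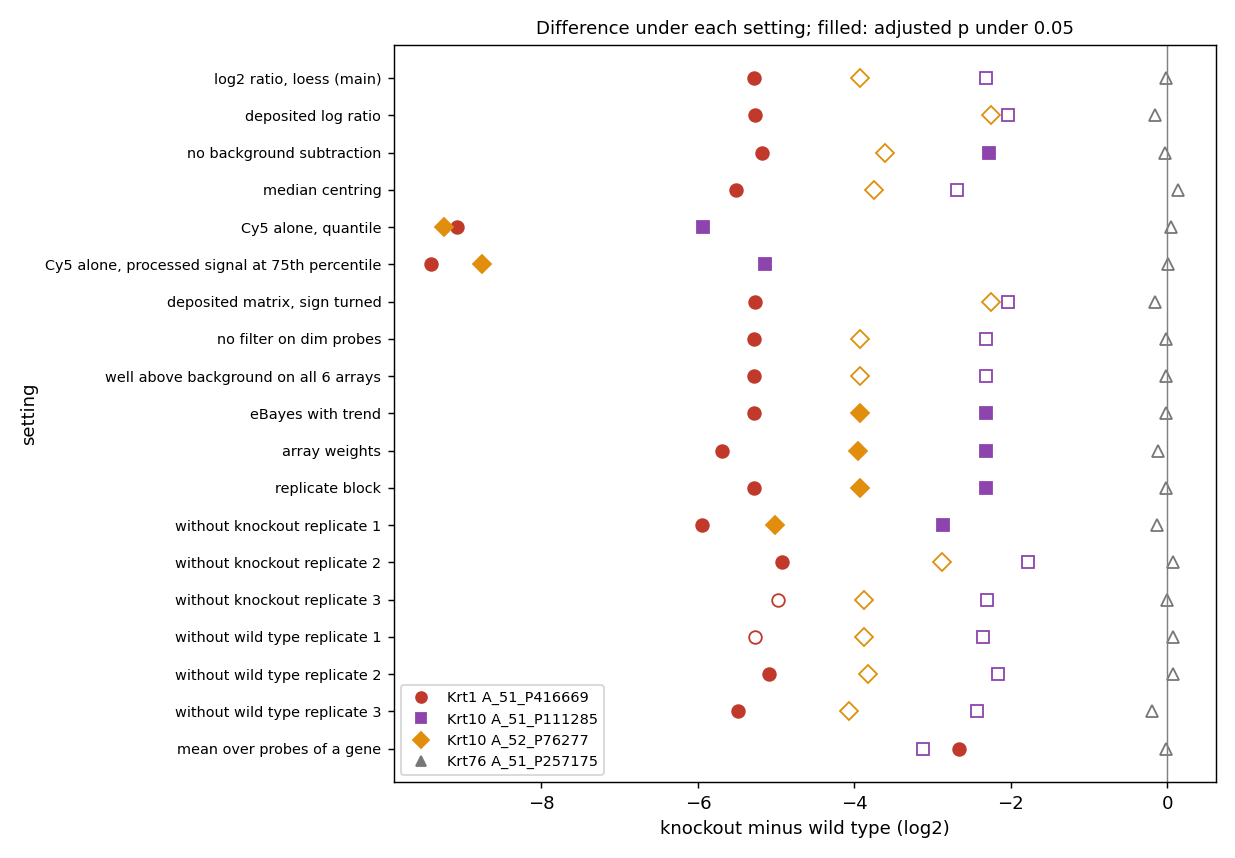
Knockout minus wild type difference (log2) for Krt1, both Krt10 probes and Krt76 under each processing setting (rows); filled symbols have an adjusted p under 0.05. The bottom row averages all tested probes of Krt1 (A_51_P207237 included) and of Krt10. Krt1 and Krt10 lie below 0 in every row, further so on Cy5 alone, and Krt76 stays within 0.2 of 0.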

How the data were processed

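Per the file headers, the scanner files hold intensity values that the authors made with Agilent Feature Extraction 10.7.3.1 (per the submitters' processing notes, version 9.1), on array design 014868 and build mm9. The deposited files also give a log10 ratio of Cy5 over Cy3, turned here to log2. The deposited series matrix holds log2 values that correlated at -0.993 to -0.996 with the scanner ratio of the same array, so they run as Cy3 over Cy5; their centring is unknown (medians -0.02 to 0.02).

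Intensities were background-corrected with normexp (offset 50) and normalized by loess within arrays, control spots at weight 0. Outlier spots (55 to 164 per array) were set to missing, and spots of a probe averaged. Probes whose Cy5 was well above background on every array of 1 or both groups of 3 (30501) were tested with limma 3.58.1 in R 4.3.3 (lmFit, eBayes, two-sided, Benjamini-Hochberg over these probes, threshold 0.05). Each channel alone was quantile-normalized between arrays. Processed signal is Agilent's, background-subtracted and dye-normalized. For genes, the brightest probe was used (20818 genes). Names were updated through RefSeq GRCm38.p6: 26918 probes matched by accession and 5899 by name, and 8357 kept theirs. For a probe below background on every knockout array, the smallest fold is that over all settings and over a bound that sets the wild type mean against, on each knockout array, either the lowest signal that counted as well above background or the probe's signal if higher (Cy5, loess then Aquantile), open to dye bias without dye swaps. Signal strength differs between probes, so levels are not compared between genes. P-values measure only the spread between these arrays, whose number limits the precision.

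Named genes were the members, Pax9, the 3 genes with the smallest p in each of 3 lists and the 5 probes most like Krt1 and Krt10; others are said to have been chosen later. The members and lists were chosen with earlier results of these data known. Replicate numbers pair the arrays by a rule on the data: deviations from group means correlated at 0.17, 0.51 and 0.34 for same-numbered arrays, all above 0.1 (other pairs -0.49 to 0.16), and numbers 1, 2 and 3 lay at the same position of both slides. Alternatives covered background correction, normalization, single channels, the dim-probe filter, eBayes trend, array weights, the block, the mean over probes and leave-one-out fits. The fit was tested on simulated data.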

Additional observations from a re-analysis of the deposited data

How the results depend on the processing

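The fall of Krt1 (A_51_P416669) kept its direction under every setting run, with -9.41 on processed Cy5, and without single arrays lay between -5.95 and -4.92. The mean over both Krt1 probes, A_51_P207237 included, was -2.66. Krt10 (A_51_P111285, -2.31, not past the threshold) passed it with no background subtraction (-2.28), on Cy5 alone (-5.93 by quantile and -5.15 by processed signal), with array weights (-2.32), with an eBayes trend (-2.31) and with the replicate block (-2.31); without single arrays it lay between -2.87 and -1.77. Krt2 passed on Cy5 alone (-0.76 and -3.28), but it had entered the test through its wild type arrays alone, so that is no support. Its readings on arrays labelled knockout were not above background, so -3.28 is not a measured fold. Krt76 changed sign around 0 with median centring (0.14) and on Cy5 alone (0.045 and 0.013), without single arrays lay between -0.19 and 0.077, and on Cy5 alone without single arrays between -0.10 and 0.15. Krt1 probe A_51_P207237 changed sign in the deposited log ratio and matrix (0.63 in both), with no background subtraction (0.018) and with median centring (0.38), and without single arrays lay between -0.30 and 0.13. The cause was not tested.

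The count of member probes past the threshold, 1, was 2 with no background subtraction, 4 on Cy5 alone by either scaling, 3 with the trend, array weights or replicate block, and 0 to 3 without single arrays (0 without knockout replicate 3 or wild type replicate 1). The count over all tested probes, 1274, was 727 in the deposited log ratio, 714 in the matrix, 139 with median centring, 8274 on Cy5 alone and 3711 on processed Cy5, 699 with the filter on all 6 arrays (fewer probes tested), 4906 with array weights, 2254 with the replicate block and 38 to 1111 without single arrays. Listed genes past it, 5, were 2 with median centring or the filter on 6 arrays, 33 on Cy5 alone, 16 on processed Cy5, 22 with array weights and 0 to 6 without single arrays. The replicate block changed no member's call but those of the Krt10 probes. Krt77 alternatives were not run, having no probe. Dim signal limits Krt2, and slide limits every difference.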

Other observations

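Krt1 and Krt10 probes were among the 9 tested probes whose Cy5 alone was lower by 5 or more on arrays labelled knockout. The rest were those of Idi2 (-8.18), Wfdc21 (-6.40), Spink12 (-6.03), Sprr2d (-5.78), Klk6 (-5.46) and Chil4 (-5.11), named here after their values were seen. Cy3 was lower at each of the rest, with differences of -1.11 at Spink12 to -3.23 at Idi2. Both Krt10 probes and the main Krt1 probe were brightest on knockout replicate 1 among the arrays labelled knockout, then on replicate 3. The same order in Cy5 held at 8590 of 30493 tested probes, so it is not limited to these genes. It held at 26 of 44 genes of the suprabasal and cornified list, 14 of 38 regulators and 4 of 15 other keratins. What set this order was not tested.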
